A study of Homo sapiens with 6 samples.

Results

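The comparison was between PLXND1 siRNA 1 and PLXND1 siRNA 2 in C4-2B MDVR cells, with 1 RNA-seq library on each side. It covered the 12888 of 58735 genes in the deposited expression table whose mean level over the 3 C4-2B MDVR libraries was at least 1 FPKM (fragments per kilobase of exon, scaled to sequencing depth). C4-2B MDVR cells descend from the prostate cancer line C4-2B and resist enzalutamide, a drug that blocks the androgen receptor. The targeted gene, PLXND1, makes Plexin D1, through which cells sense semaphorins. The cells had been given a control siRNA, siRNA 1 or siRNA 2, and every group was 1 library of otherwise the same line. The control siRNA library served here only to tell which of the 2 siRNA libraries stood away from it. The same 3 treatments in H660, a line from neuroendocrine prostate cancer, gave a second pair of siRNA libraries. Dose, time after transfection, siRNA sequences and whether cultures were repeated are not given in the sources used here. All values are descriptions of these libraries, and no test of the conditions was possible.

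An siRNA directs the cell's silencing complex to a messenger RNA that matches it. Each siRNA can also act on transcripts that match it in part, and that set differs from siRNA to siRNA. In prostate cancer cells the androgen receptor is a hormone-dependent transcription factor that drives secreted proteases, transporters and lipid enzymes of the luminal cell. MYC drives genes that build ribosomes and nucleotides, E2F factors drive DNA replication genes, and the transcription factor ATF4 drives amino acid supply when translation is restrained by stress.

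The C4-2B MDVR libraries held 17655802 to 21748669 fragments, and the siRNA 2 library was the smallest. Mitochondrial genes took 3.38% of fragments in the control, 7.44% with siRNA 1 and 6.83% with siRNA 2, so the siRNA libraries were close to each other and both stood above the control. Genes of cytosolic ribosomal proteins took 6.82%, 5.91% and 8.05%. Over the 39 neuroendocrine markers the summed level was 112 to 128 FPKM in these libraries and 1795 to 1871 FPKM in H660. The 12 basal prostate markers summed to 13.4 to 22.0 FPKM, the 12 fibroblast markers to 4.73 to 7.81 FPKM and the 13 immune and endothelial markers to 0.907 to 1.80 FPKM, each highest with siRNA 1. The 16 luminal markers summed to 1324 FPKM in the control, 1766 with siRNA 1 and 1297 with siRNA 2. Just inside the level minimum was ASRGL1, with a mean of 1.00 FPKM, and just outside was RSPH14, with 0.999 FPKM.

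PLXND1 itself (chr3:129555175-129606818, minus strand, GRCh38) was at 7.40 FPKM in the control, 1.57 with siRNA 1 and 3.10 with siRNA 2. Both siRNA libraries were below the control, and siRNA 1 was the lower of them, at 0.507 times the siRNA 2 level (95% interval 0.438 to 0.586). This and the intervals below are exact binomial intervals of the fragment ratio and cover counting error only. In H660 the gene was at 9.13, 7.62 and 7.54 FPKM, and the ratio of siRNA 1 over siRNA 2 was 1.01 (0.946 to 1.08). Whether the depth of the PLXND1 decrease bears on the differences below was not tested.

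The siRNA libraries of C4-2B MDVR were wider apart than those of H660. Differences are given as log2(FPKM + 1) with siRNA 1 minus that with siRNA 2, so positive values are higher with siRNA 1, and a single value after a gene or list name is such a difference. The median difference of all 12888 genes was −0.00078, with the middle 90% between −0.72 and 0.78. At least 2-fold higher with siRNA 1 were 362 genes, or 2.81%, and 246 genes, or 1.91%, were at least 2-fold higher with siRNA 2. All counts past 2-fold are on the log2(FPKM + 1) scale. A gene at a low level can thus have an FPKM ratio above 2 and not be counted. Among the 10758 protein-coding nuclear genes the counts were 227 (2.11%) and 114 (1.06%). By any amount, 49.9% of all genes were higher with siRNA 1 and 50.1% with siRNA 2. The standard deviation of the differences over protein-coding nuclear genes was 0.44 in C4-2B MDVR and 0.19 in H660.

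The largest difference towards siRNA 1 among protein-coding genes of at least 100 fragments was that of ANKRD22, at 2.81 FPKM in the control, 14.8 with siRNA 1 and 0.746 with siRNA 2, a log2 difference of 3.18. AQP3, a water and glycerol channel, was at 85.0 FPKM in the control, 337 with siRNA 1 and 77.7 with siRNA 2, 4.33 times (95% interval 4.18 to 4.49) the siRNA 2 level. LCP1, an actin-bundling protein, was at 31.4, 88.9 and 18.3 FPKM (here and below in the order control, siRNA 1, siRNA 2), and JAG1, a Notch ligand, was at 8.24, 20.3 and 4.41 FPKM. For LCP1 and JAG1 the siRNA libraries stood on opposite sides of the control. CREB3L1, a membrane-bound transcription factor, was at 3.09, 27.4 and 3.69 FPKM in the same order, and CRYAB, a small heat shock protein, was at 6.80, 30.3 and 5.28 FPKM, so for these only the siRNA 1 library stood away from the control. Also leading on this side were the phospholipase gene PLA2G4F (2.61), the adhesion genes BCAM (2.34) and NCAM2 (2.05), the kinase gene SGK2 (2.03), the chaperone gene CLU (2.00), and HGD, which breaks down homogentisate (2.17). PRSS27 (2.27), HRCT1 (2.27), ENPP5 (2.13), SERPINI1 (2.11) and CACNG4 (1.94) had differences of similar size. SERPINI1, SGK2 and NCAM2 passed the level minimum only through the siRNA 1 library. The other 3 of the 20 leading genes were the clustered histone genes HIST1H1C (2.69), HIST1H2BC (2.60) and HIST1H2AC (2.01).

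The largest difference towards siRNA 2 was that of TEX19, normally a germ-cell gene, which was at 1.17 FPKM in the control, 2.33 with siRNA 1 and 20.7 with siRNA 2, 8.88 times (95% interval 7.12 to 11.2) the siRNA 1 level. The cancer-testis gene SSX2 was at 1.22, 1.196 and 7.09 FPKM, a gene with near-identical copies that may share its reads. SESN3, a stress-induced regulator of growth signalling, was at 17.8 FPKM in the control, 17.0 with siRNA 1 and 54.2 with siRNA 2, and only the siRNA 2 library stood away from the control. HMGA1, a chromatin protein of proliferating cells, was at 129.9, 72.7 and 203 FPKM, and TERT, the catalytic subunit of telomerase, was at 1.81, 0.550 and 3.45 FPKM. PABPC4, which binds poly(A) tails, was at 56.6, 26.5 and 83.6 FPKM. These 3 genes were below the control with siRNA 1 and above it with siRNA 2. NPTX2 (11.5, 3.11 and 12.5 FPKM) and RAB11FIP2 (3.89, 0.982 and 4.37 FPKM) were low with siRNA 1 alone. CYP1A2 was at 0.248, 0.491 and 3.81 FPKM and the heat shock gene HSPA6 at 0.366, 0.586 and 3.19 FPKM. Both were near the control with siRNA 1 and higher with siRNA 2, and both passed the level minimum only through the siRNA 2 library. The others among the 20 leading genes not described with their lists were HBQ1 (−2.20), CAMKV (−1.59), the clock gene NR1D1 (−1.54), SLC22A31 (−1.49) and LYNX1-SLURP2 (−1.77), a readthrough of neighbouring genes whose reads cannot be assigned with certainty.

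**Figure D1:**
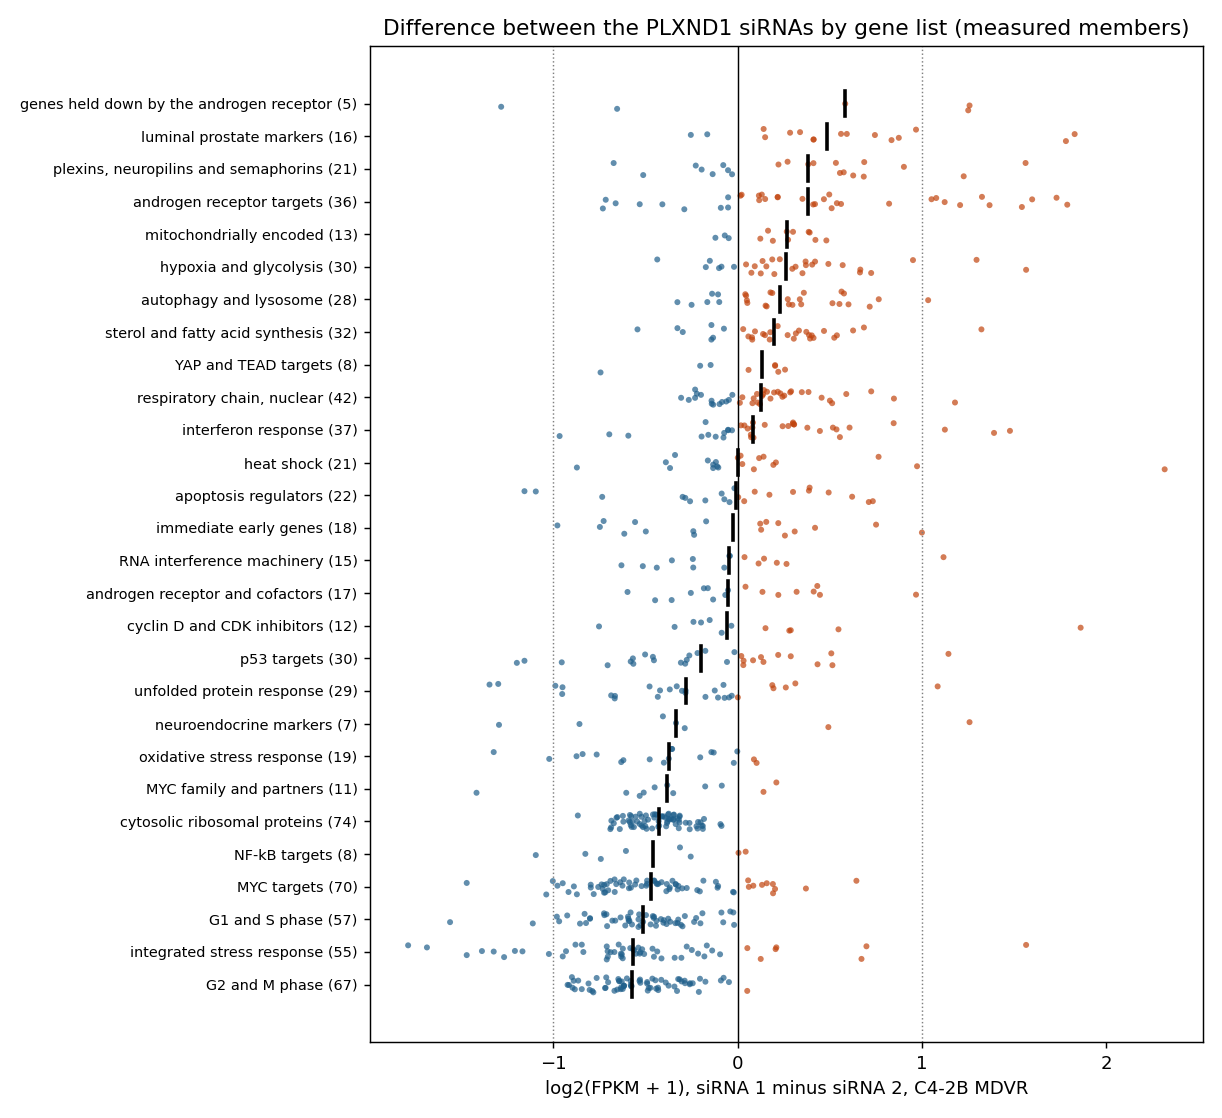
Each point is 1 measured gene of a list, placed by its log2(FPKM + 1) with siRNA 1 minus that with siRNA 2 in C4-2B MDVR. Black bars are list medians, dotted lines mark 2-fold, numbers in brackets count measured members, and 1 library stands on each side. Androgen receptor targets spread to the right with a median of 0.38, while G1 and S phase, G2 and M phase, MYC target and integrated stress response genes lie to the left, with medians from −0.58 to −0.47.

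Androgen receptor targets were higher with siRNA 1, and those at high levels in the line were among the furthest apart. Of 42 listed targets 36 were measured, of which 27 were higher with siRNA 1 and 9 with siRNA 2, with a median difference of 0.38. At least 2-fold higher with siRNA 1 were 10 of the 36, against 2.81% of all genes, and 0 were at least 2-fold higher with siRNA 2, against 1.91%. The median over the list was −0.04 from the control with siRNA 1 and −0.30 with siRNA 2, and 17 and 7 of the 36 were above the control.

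Among the roles in the list, the protease and phosphatase genes had the highest median difference. KLK3, which encodes prostate-specific antigen (chr19:50854915-50860764, plus strand), was at 197 FPKM in the control, 228 with siRNA 1 and 77.5 with siRNA 2, 2.94 times (95% interval 2.85 to 3.03) the siRNA 2 level. Its neighbour KLK2, a closely related kallikrein, was at 102, 85.0 and 36.2 FPKM in the same order. For both genes the siRNA 2 library was low while siRNA 1 stayed within 0.5 log2 units of the control. ADAM7, a membrane protein of the ADAM family, was at 3.80, 6.49 and 1.17 FPKM, on opposite sides of the control. KLK4 ran the other way, at 63.7, 54.2 and 89.7 FPKM, and was named after its value was seen. Over the 5 measured proteases and phosphatases of the list the median difference was 1.21. ACPP, which encodes prostatic acid phosphatase, fell under the level minimum with 1.93, 0.521 and 0.220 FPKM.

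Among the 10 membrane proteins and transporters, with a median of 0.59, TMPRSS2, a surface serine protease, was at 135 FPKM in the control, 263 with siRNA 1 and 101.2 with siRNA 2. STEAP1, a surface metalloreductase-family protein, was at 104 FPKM in the control, 179 with siRNA 1 and 58.4 with siRNA 2. PLPP1, a lipid phosphatase, was at 128 FPKM in the control, 230.1 with siRNA 1 and 68.6 with siRNA 2, 3.35 times (95% interval 3.20 to 3.51) the siRNA 2 level. STEAP1 and PLPP1 were above the control with siRNA 1 and below it with siRNA 2. SLC45A3, a sugar transporter known as prostein, was below the control with both, at 151, 94.1 and 44.9 FPKM, and STEAP4 was at 2.23, 3.03 and 0.909 FPKM. The 15 metabolic and signalling enzymes had a median of 0.35, with the fatty acid ligase gene ACSL3 at 155, 145 and 66.1 FPKM and CAMKK2, a kinase upstream of AMPK, at 96.9, 129 and 72.3 FPKM. C1orf116 was at 38.9, 63.5 and 24.7 FPKM. NCAPD3, a condensin subunit, ran the other way at 12.6, 6.62 and 11.7 FPKM. The 6 transcription and elongation factors were closer together, with a median of 0.31. SPDEF, an ETS factor, was at 196, 249.8 and 225 FPKM.

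Cofactors stood closer together than these targets. The homeobox cofactor gene HOXB13 was at 160.2, 213 and 108 FPKM, 0.97 log2 units apart, while the mediator subunit MED1 was at −0.60. The median of the 17 measured genes of the receptor and cofactor list was −0.05, with 0 past 2-fold. Genes that the receptor holds down did not form 1 group. Of 15 listed, 5 were measured. FOLH1, which encodes prostate-specific membrane antigen, was at 203 FPKM in the control, 304 with siRNA 1 and 127 with siRNA 2. SYT4, a vesicle protein, was at 26.1, 69.3 and 28.4 FPKM, and the glucuronidation enzyme gene UGT2B11 at 3.40, 1.44 and 4.95 FPKM, although reads of UGT2B11 and UGT2B28 are hard to separate. UGT2B28 was at 1.13, 0.596 and 1.51 FPKM.

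One arm of the receptor's binding site, AGAACA on either strand, lay in the promoter window (250 bases before to 50 after the start) of 3 of the 24 targets with a RefSeq window, against 8.303% of 8804 protein-coding genes measured here. The stretch around the match upstream of KLK3 is printed because KLK3 had the largest difference of the 3. It is RefSeq sequence, GRCh38.p14, chr19:50854695-50854800 on the plus strand, and capitals mark that arm, which starts 170 bases before the gene's start.
KLK3: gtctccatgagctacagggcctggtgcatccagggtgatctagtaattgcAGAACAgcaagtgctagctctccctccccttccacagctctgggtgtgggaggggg

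Replication genes were lower with siRNA 1 throughout. All 57 measured genes of G1 and S phase, out of 58 listed, were higher with siRNA 2, where 50.1% of all genes were, and the median difference was −0.51. On the log2(FPKM + 1) scale 2 of 57 were at least 2-fold higher with siRNA 2, against 1.91% of all genes, and 0 with siRNA 1. With 0.1 added in place of 1, E2F8, E2F2 and DTL were also past 2-fold, at −1.30, −1.07 and −1.07. The count towards siRNA 2 over all genes then rose from 246 to 482. The list's median was −0.35 from the control with siRNA 1 and 0.17 with siRNA 2, and 3 and 39 of the 57 were above the control.

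CDT1, which loads the replicative helicase onto origins, differed most, at 21.8 FPKM in the control, 16.5 with siRNA 1 and 50.6 with siRNA 2, 3.07 times (95% interval 2.86 to 3.29) the siRNA 1 level. For CDT1 it was the siRNA 2 library that stood away from the control. The 16 origin and helicase genes had a median of −0.56. The helicase subunit MCM2 was at 31.8 FPKM in the control, 17.8 with siRNA 1 and 34.8 with siRNA 2, so the siRNA 1 library was the lower one. CDC6, which also loads the helicase, was at 12.1, 8.18 and 15.0 FPKM, MCM7 at 49.8, 32.7 and 42.4 FPKM and MCM10 at 6.96, 4.80 and 9.26 FPKM. Among the 20 polymerase, clamp and repair genes, with a median of −0.43, the sliding clamp gene PCNA was at 99.3, 78.7 and 118 FPKM, the flap nuclease gene FEN1 at 31.9, 16.5 and 29.4 FPKM and the primase gene PRIM1 at 8.99, 7.54 and 14.5 FPKM. Of the 6 genes of nucleotide supply, with a median of −0.48, thymidine kinase TK1 was at 175, 124 and 172 FPKM and the reductase subunit RRM2 at 13.6, 11.9 and 20.3 FPKM. The 15 cyclin, E2F and chromatin genes had a median of −0.59. E2F1, an activator of the replication genes, was at 44.0, 34.7 and 55.6 FPKM, and the repressor E2F7, the other member past 2-fold, was at 3.28, 1.56 and 4.53 FPKM. E2F2 (−0.83), E2F8 (−0.98), the ligase adaptor DTL (−0.97), UHRF1 (−0.72), which maintains DNA methylation, and SLBP (−0.59), which binds histone transcripts, differed the same way.

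Mitotic genes showed a similar shift. Of 67 measured G2 and M phase genes, out of 68 listed, 66 were higher with siRNA 2 and 1 with siRNA 1. That 1 gene, named after its value was seen, was the kinase gene CDK1 at 54.9, 66.3 and 63.9 FPKM. The median was −0.58 and 0 genes were past 2-fold in either direction. Here the median was −0.49 from the control with siRNA 1 and 0.02 with siRNA 2, with 2 and 36 of 67 above the control. The kinetochore protein CENPF was at 14.2 FPKM in the control, 6.19 with siRNA 1 and 12.6 with siRNA 2, 2.03 times (95% interval 1.90 to 2.17) the siRNA 1 level with siRNA 2. PLK1, the polo-like kinase of mitosis, was at 25.7 FPKM in the control, 14.3 with siRNA 1 and 25.7 with siRNA 2, and cyclin A, CCNA2, at 17.2, 8.75 and 15.8 FPKM. In both of these the siRNA 2 library was close to the control and siRNA 1 below it. The mitotic phosphatase CDC25C was at 3.70, 2.77 and 6.14 FPKM, the spindle genes TPX2, MAD2L1 and KIF4A at 40.6, 30.1 and 56.7 FPKM, 6.10, 4.25 and 8.79 FPKM and 14.2, 7.49 and 14.8 FPKM, and KIF23 at 3.98, 2.35 and 5.02 FPKM. Topoisomerase TOP2A was at 16.0, 11.1 and 21.3 FPKM and the condensin subunits NCAPG and NCAPH at 10.9, 5.45 and 10.7 FPKM and 17.1, 9.89 and 18.1 FPKM. The transcription factor MYBL2, with a high level in the list, was at 72.0, 44.8 and 77.9 FPKM. Also at high levels, the anaphase activator CDC20 (86.7, 51.6 and 59.6 FPKM) and cyclin B, CCNB1 (69.3, 36.5 and 49.97 FPKM), were below the control with both siRNAs. CKS2 (−0.63) and UBE2S (−0.49) stood near the list's median.

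The list of D cyclins, their kinases, CDK inhibitors and RB family genes had no common direction, with 5 higher with siRNA 1 and 7 with siRNA 2. CCND1, cyclin D1, ran opposite to the replication and mitotic genes, at 66.8 FPKM in the control, 106 with siRNA 1 and 28.5 with siRNA 2, 3.73 times (95% interval 3.56 to 3.90) the siRNA 2 level. Its partner CDK4 was at 27.0 FPKM in the control, 18.9 with siRNA 1 and 32.6 with siRNA 2, higher with siRNA 2. RB1, which holds E2F factors back, was at 5.30, 6.76 and 4.31 FPKM and the inhibitor CDKN2D at 11.7, 14.0 and 18.1 FPKM. CDKN1A, the p21 inhibitor, was high with both, at 47.5, 422 and 346 FPKM, and was named after its value was seen. The median of the 12 measured genes was −0.06.

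Sites named for these genes were frequent in their promoter windows. An E2F site, TTTCGCGC or TTTGGCGC on either strand, lay in 16 of 49 G1 and S phase windows and in 2.215% of all 8804. The cell cycle homology region, TTTGAA or TTCGAA on either strand, lay in 42 of 57 G2 and M phase windows and in 10.31% of all. Genes with and without a match differed little within the lists: the median was −0.54 for the 16 genes with an E2F site and −0.50 for the 33 without, and −0.53 for the 42 with a cell cycle homology region and −0.62 for the 15 without. Over all 8804 genes the median was −0.06 for the 908 with a cell cycle homology region and 0.01 for the others. The stretches below are from the 2 genes of each list with the largest difference whose match lies upstream outside annotated exons (RefSeq, GRCh38.p14), with matches in capitals. E2F2 is chr1:23531234-23531325 on the minus strand, and CDC25A, a phosphatase that activates CDK2, is chr3:48188418-48188511 on the minus strand. TOP2A is chr17:40418035-40418140 on the minus strand, and MKI67, which encodes the proliferation marker Ki-67, is chr10:128126424-128126520 on the minus strand.
E2F2: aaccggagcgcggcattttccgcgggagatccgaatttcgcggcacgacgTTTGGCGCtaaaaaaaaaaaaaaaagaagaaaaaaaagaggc
CDC25A: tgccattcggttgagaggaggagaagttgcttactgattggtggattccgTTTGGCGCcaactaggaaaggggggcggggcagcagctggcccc
TOP2A: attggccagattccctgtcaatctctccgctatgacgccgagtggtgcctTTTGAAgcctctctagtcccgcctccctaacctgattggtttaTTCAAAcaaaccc
MKI67: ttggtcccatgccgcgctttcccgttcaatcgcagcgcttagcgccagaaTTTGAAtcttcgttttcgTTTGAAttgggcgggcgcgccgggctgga

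MYC and its targets were lower with siRNA 1. MYC was at 115 FPKM in the control, 54.0 with siRNA 1 and 146 with siRNA 2, 2.70 times (95% interval 2.59 to 2.82) the siRNA 1 level with siRNA 2, and it was the siRNA 1 library that stood away from the control. Its antagonists MXD3, MXD1 and MXI1 were at 4.60, 4.28 and 7.02 FPKM, 0.676, 1.09 and 2.02 FPKM and 16.9, 16.7 and 24.1 FPKM, also higher with siRNA 2. Of the 11 measured genes of the MYC family and its partners 9 were higher with siRNA 2, with a median of −0.38, which became −0.07 for members with a mean of at least 10 FPKM after subtracting the median of all genes. Of 72 listed MYC targets 70 were measured, of which 60 were higher with siRNA 2 and 10 with siRNA 1, with a median of −0.47. At least 2-fold higher with siRNA 2 were 3 of 70, and 0 with siRNA 1, against 1.91% and 2.81% of all genes. The median was −0.41 from the control with siRNA 1 and 0.13 with siRNA 2, and 2 and 45 of the 70 were above the control.

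The nucleolar and ribosome assembly genes had a median of −0.59 over 33 genes, with 31 of them higher with siRNA 2. NOLC1, a scaffold of the nucleolus, was at 80.9 FPKM in the control, 56.2 with siRNA 1 and 116.5 with siRNA 2, 2.07 times (95% interval 2.00 to 2.15) the siRNA 1 level. The ribosomal RNA helicase gene DDX21 was at 61.0 FPKM in the control, 41.4 with siRNA 1 and 84.0 with siRNA 2. Nucleophosmin, NPM1, was at 259 FPKM in the control, 174 with siRNA 1 and 323 with siRNA 2, and the methyltransferase gene FBL at 97.4, 64.3 and 122 FPKM. In all 4 the control lay between the siRNA libraries. WDR43 (−0.98), NOP16 (−0.80), MYBBP1A (−0.78) and RCL1 (−0.76) differed the same way. The 13 metabolic genes had a median of −0.67, with SHMT2, a mitochondrial enzyme of one-carbon metabolism, at 69.2, 56.8 and 111 FPKM. An exception was ODC1, the first enzyme of polyamine synthesis, at 148, 121 and 77.1 FPKM and higher with siRNA 1, named after its value was seen. The 10 mitochondrial import and chaperone genes stood closer together (−0.17), with HSPD1, the mitochondrial chaperonin, at 370.2, 257 and 472 FPKM and C1QBP at 188, 146 and 205 FPKM. Of the 14 translation and RNA genes (−0.24), XPOT, which exports transfer RNA, was at 57.1 FPKM in the control, 23.3 with siRNA 1 and 66.2 with siRNA 2 and is also a listed stress response gene. EIF5A was at 188, 129 and 131 FPKM, below the control with both siRNAs, HNRNPA1 at 218, 174 and 256 FPKM and PA2G4 at 49.9, 26.9 and 47.5 FPKM.

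An E-box, CACGTG, which MYC and other factors bind, lay in 20 of 57 windows of MYC targets and in 10.69% of all. The median difference was −0.43 for those 20 and −0.45 for the 37 without. The stretches are from the pair with the largest difference and an upstream match outside annotated exons (RefSeq, GRCh38.p14, E-box in capitals). SRM, spermidine synthase, had a difference of −0.67 and is chr1:11060162-11060267 on the minus strand. UTP20, of ribosome assembly, had a difference of −0.34 and is chr12:101280045-101280104 on the plus strand.
SRM: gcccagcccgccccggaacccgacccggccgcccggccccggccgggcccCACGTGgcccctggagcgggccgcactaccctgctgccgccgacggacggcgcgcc
UTP20: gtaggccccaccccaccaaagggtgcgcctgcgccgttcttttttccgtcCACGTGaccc

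Ribosomal protein genes, which are not in the MYC target list, were also higher with siRNA 2. All 74 measured, of 75 listed, had negative differences, from −0.87 to −0.09, with a median of −0.43 and 0 past 2-fold. RPS12 was at 889 FPKM in the control, 725 with siRNA 1 and 1324 with siRNA 2, RPL28 at 134, 126 and 204 FPKM and RPL14 at 74.5, 67.6 and 109 FPKM. All 74 were above the control with siRNA 2 and 26 with siRNA 1, but these counts were 61 and 0 with short RNAs left out and rescaled and 56 and 9 with quantile normalization. Ribosomal protein genes have many processed copies, and reads shared with those could have been split.

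**Figure D2:**
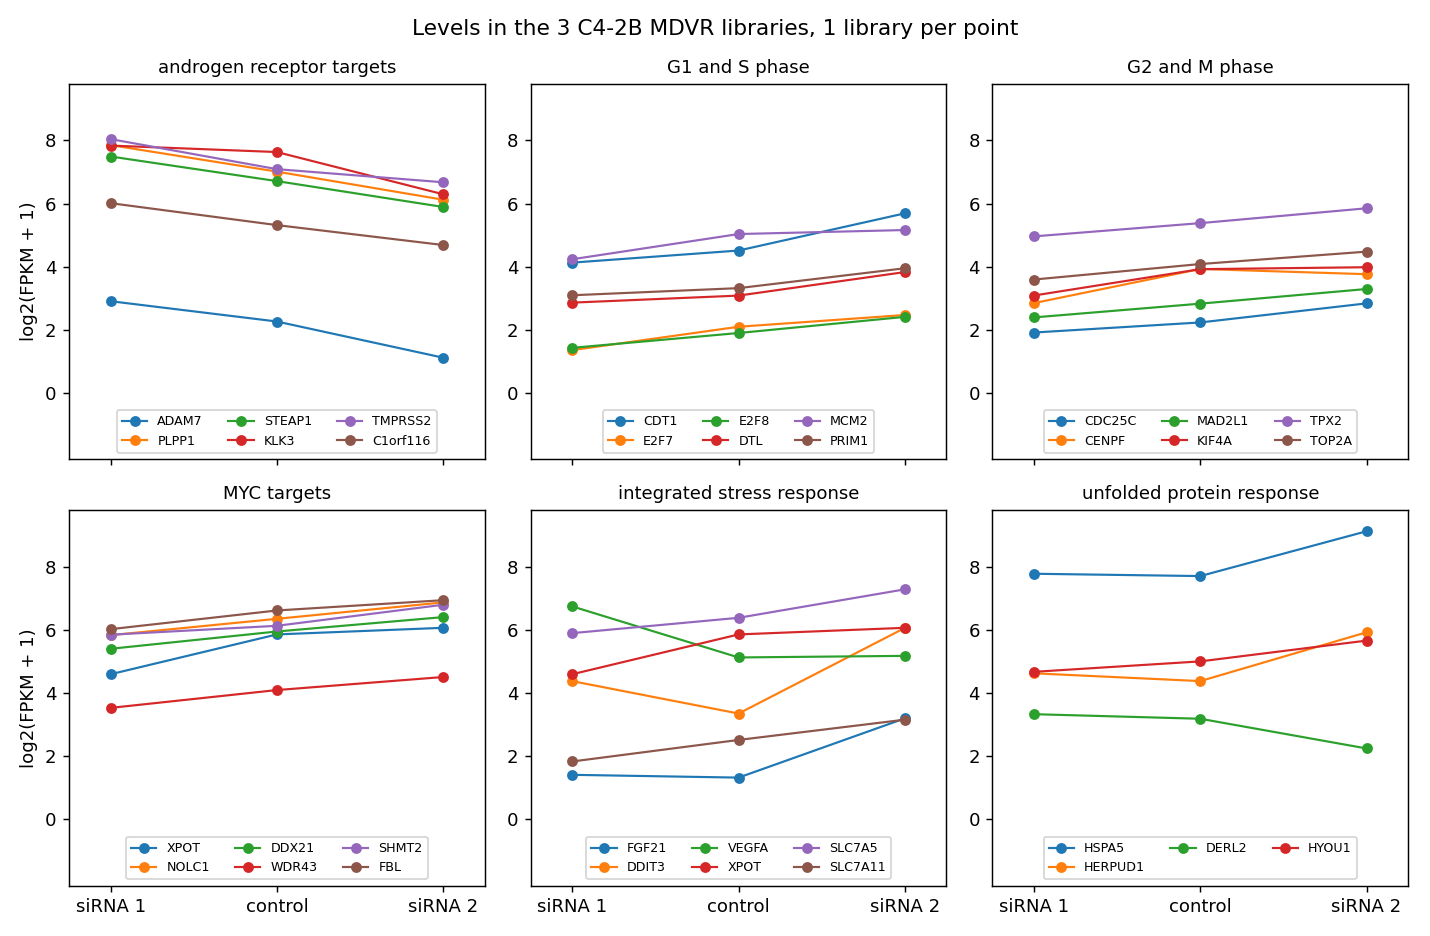
Level of single genes, log2(FPKM + 1), in the siRNA 1, control and siRNA 2 libraries of C4-2B MDVR, 1 library per point; each panel shows the 6 members of a list furthest apart between the siRNAs (4 for the unfolded protein response). Lines run down from siRNA 1 to siRNA 2 for the androgen receptor targets and up for the replication, mitotic and MYC target genes, with the control mostly between; DDIT3 is at 9.23 FPKM in the control,  19.8 with siRNA 1 and 66.0 with siRNA 2.

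Stress genes of the ATF4 pathway were higher with siRNA 2. Of 55 integrated stress response genes, all measured, 48 were higher with siRNA 2 and 7 with siRNA 1, with a median of −0.57. At least 2-fold higher with siRNA 2 were 9 of 55, against 1.91% of all genes, and 1 was at least 2-fold higher with siRNA 1, against 2.81%. The list's median was 0.04 from the control with siRNA 1 and 0.58 with siRNA 2, with 30 and 51 of 55 above the control.

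DDIT3, which encodes the stress transcription factor CHOP, was at 9.23 FPKM in the control, 19.8 with siRNA 1 and 66.0 with siRNA 2, 3.33 times (95% interval 3.01 to 3.69) the siRNA 1 level. ATF3, another stress transcription factor, was at 6.38 FPKM in the control, 16.5 with siRNA 1 and 41.2 with siRNA 2. For DDIT3 and ATF3 both siRNA libraries were above the control, and siRNA 2 further. ATF4 itself was at 209.7 FPKM in the control, 194 with siRNA 1 and 349.5 with siRNA 2, close to the control with siRNA 1. TRIB3, a pseudokinase that dampens the response, was at 32.8, 41.4 and 85.2 FPKM, and DDIT4, an inhibitor of mTOR signalling, was at 151, 263 and 227 FPKM, higher with siRNA 1. All 9 amino acid transporter genes were higher with siRNA 2, with a median of −0.70. SLC7A5, which imports large neutral amino acids, was at 82.7 FPKM in the control, 58.8 with siRNA 1 and 155 with siRNA 2, SLC7A11, the cystine importer, at 4.73, 2.57 and 7.93 FPKM, and the glycine transporter gene SLC6A9 at 7.41, 5.40 and 13.4 FPKM. The 12 transfer RNA synthetase genes were likewise all higher with siRNA 2 (−0.57), with AARS at 106, 99.4 and 163 FPKM. Of the 13 genes of amino acid synthesis and one-carbon metabolism (−0.57), PSAT1, of serine synthesis, was at 129, 136 and 251 FPKM, MTHFD2 at 37.2, 31.1 and 60.1 FPKM and PYCR1, of proline synthesis, at 108, 100.8 and 149.8 FPKM. Among secreted products, the hormone gene FGF21 was at 1.504 FPKM in the control, 1.66 with siRNA 1 and 8.19 with siRNA 2, 4.93 times (95% interval 3.53 to 7.03) the siRNA 1 level, and STC2 at 14.6, 15.2 and 36.4 FPKM. VEGFA, an angiogenic factor that is also a hypoxia target, ran the other way. It was at 34.1 FPKM in the control, 106 with siRNA 1 and 35.3 with siRNA 2. With siRNA 1 it was at 3.02 times (95% interval 2.94 to 3.09) the siRNA 2 level. Among the 6 secreted and receptor genes 2 were higher with siRNA 1, VEGFA the only one at least 2-fold.

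The composite C/EBP-ATF element, TGATGNAA on either strand, lay in 12 of 44 windows of the stress list and in 1.533% of all. All 12 genes with it were higher with siRNA 2, as were 27 of the 32 without, and the medians were −0.61 and −0.57. Over all 8804 genes the median was −0.12 for the 135 with the element. The promoter stretches of FGF21 and ATF3 show it (RefSeq, GRCh38.p14, element in capitals, on the opposite strand in FGF21). FGF21 is chr19:48755420-48755523 on the plus strand, with the element 54 bases before the start, and ATF3 is chr1:212565166-212565273 on the plus strand, with it 191 bases before the first listed start.
FGF21: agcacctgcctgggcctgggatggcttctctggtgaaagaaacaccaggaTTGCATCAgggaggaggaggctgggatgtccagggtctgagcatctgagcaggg
ATF3: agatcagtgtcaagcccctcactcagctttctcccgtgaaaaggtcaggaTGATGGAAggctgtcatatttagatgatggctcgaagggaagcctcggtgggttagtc

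Each promoter window is at the first start that RefSeq lists, none of the motifs searched contains another, and a match of letters does not show that a factor binds.

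Chaperones of the endoplasmic reticulum were higher with siRNA 2 in part. HSPA5, the main chaperone there, was at 208 FPKM in the control, 219 with siRNA 1 and 559 with siRNA 2, 2.55 times (95% interval 2.50 to 2.60) the siRNA 1 level, and HERPUD1, of protein degradation, was at 19.9 FPKM in the control, 23.7 with siRNA 1 and 59.9 with siRNA 2. Both were near the control with siRNA 1. HYOU1 was at 31.2, 24.6 and 49.7 FPKM, while DERL2, of the export channel, was at 8.12, 9.08 and 3.75 FPKM and so lower with siRNA 2. Of 29 measured genes of the unfolded protein response, out of 30 listed, 23 were higher with siRNA 2, with a median of −0.28, and 2 were at least 2-fold higher with siRNA 2 and 1 with siRNA 1, against 1.91% and 2.81% of all genes. Of 19 measured oxidative stress genes, out of 25 listed, 17 were higher with siRNA 2, with a median of −0.37. Haem oxygenase HMOX1 was at 5.13 FPKM in the control, 14.3 with siRNA 1 and 30.2 with siRNA 2, ferritin light chain FTL at 279.8, 266 and 488 FPKM and OSGIN1 at 3.18, 4.18 and 8.27 FPKM. Of the measured heat shock genes, cytosolic and mitochondrial chaperones among them, 11 of 21 were higher with siRNA 1, with a median of 0.00107. Within the list CRYAB stood far towards siRNA 1, and HSPB8 (1.30, 6.55 and 2.84 FPKM) and DNAJB4 (2.84, 5.01 and 2.54 FPKM) less far.

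Of the other lists, luminal markers, hypoxia genes and lysosomal genes lay towards siRNA 1. Of 16 luminal prostate markers 14 were higher with siRNA 1, with a median of 0.49. AGR2, of secretory cells, was at 13.0 FPKM in the control, 28.2 with siRNA 1 and 7.23 with siRNA 2, and the keratin gene KRT19 at 19.3 FPKM in the control, 32.1 with siRNA 1 and 8.62 with siRNA 2, on opposite sides of the control, and the junction gene CLDN4 was at 89.3, 165 and 89.4 FPKM. Of 30 hypoxia and glycolysis genes 24 were higher with siRNA 1 (median 0.26), among them the glucose transporter gene SLC2A3 (3.27, 4.80 and 1.36 FPKM), PFKFB4 (0.95) and ALDOA (0.72). Of 28 autophagy and lysosome genes 22 were (median 0.23), with NEU1, CTSD and ATP6V0D1 at 0.77, 0.72 and 0.60. Of 32 sterol and fatty acid genes 25 were (median 0.20), with the desaturase gene FADS2 at 199, 175 and 69.5 FPKM, LSS and ACSS2 at 0.69 and 0.63, and FDPS the other way at −0.54. Semaphorins SEMA3C (1.30, 5.12 and 1.07 FPKM) and SEMA4G (7.98, 20.7 and 8.27 FPKM) led the 21 measured plexin, neuropilin and semaphorin genes, of which 13 were higher with siRNA 1 (median 0.38), and PLXNB3 and SEMA3B were at 0.90 and 0.69. With no filter on low values the median of the plexin list, less that of all genes, was 0.05.

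Mitochondrially encoded subunits were higher with siRNA 1 for 10 of 13 (median 0.27, or 0.07 with quantile normalization after subtracting the median of all genes), with MT-ND2, MT-CYB, MT-ND6 and MT-ND3 at 0.48, 0.42, 0.39 and 0.39, and nuclear respiratory chain genes for 28 of 42 (median 0.13), with SDHD at 16.7, 20.4 and 8.44 FPKM, COX6A1 at 74.2, 126 and 69.8 FPKM and NDUFA2 and NDUFA8 at 0.73 and 0.59. For interferon and p53 genes both siRNA libraries had list medians above the control, at 1.06 and 0.91 for the first and 0.77 and 1.04 for the second. Of 37 measured interferon response genes 25 were higher with siRNA 1 (median 0.08), with IFI6 at 34.7, 344 and 157 FPKM and the control listing 0 for the interferon genes IFNL1 and IFNL3. Those were at 5.39 and 3.93 FPKM with siRNA 1 and 1.29 and 0.878 with siRNA 2, and reads of IFNL3 may be shared with its near copy. The chemokine gene CXCL10, also listed at 0 in the control, was at 2.11 FPKM with siRNA 1 and 5.08 with siRNA 2. Genes at 0 in the control passed the level minimum only through the siRNA libraries, and IFNL1 and IFNL3 only through siRNA 1. The interferon medians and counts include such members. With no filter on low values the interferon median between the siRNAs, less that of all genes, was 0.08. Of 30 p53 targets 18 were higher with siRNA 2 (median −0.20), with ZMAT3 at 2.97, 2.72 and 7.53 FPKM, the death gene BBC3 at 4.11, 7.01 and 16.9 FPKM, PLK3 at −0.95 and SERTAD1 the other way at 1.14.

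Small lists were mostly mixed. Of 22 apoptosis regulators 11 were higher with each siRNA, with BIRC3 at 0.372, 0.641 and 2.51 FPKM, BCL2L11 at −0.74 and BIK at 0.73. BIRC3 passed the level minimum only through the siRNA 2 library. Of 8 measured NF-kB targets, out of 20 listed, 6 were higher with siRNA 2, with a median of −0.46. These included BIRC3, also in this list, NFKB2, LIF and NFKB1 at −1.10, −0.83, −0.74 and −0.61. Of 18 immediate early genes 9 were higher with each, with FOSL2 and DUSP1 at 1.00 and 0.75 and DUSP4 and IER3 at −0.98 and −0.75. Of 8 YAP and TEAD targets 5 were higher with siRNA 1, with FJX1 at −0.74 and LATS2, CYR61 and ARHGEF17 at 0.26, 0.22 and 0.20. Of 15 genes of RNA interference 6 were, with the helicase gene MOV10 at 1.12 and DICER1, XPO5 and TNRC6B at −0.63, −0.51 and −0.44. The neuroendocrine factor gene HES6 was at 39.4 FPKM in the control, 15.4 with siRNA 1 and 39.3 with siRNA 2, low with siRNA 1 alone, and LHX2 and ENO2, the other leading members of the 7 measured of 39 listed, 5 of which were higher with siRNA 2, were at −0.86 and 0.49. The few measured basal and fibroblast markers, LAMB3 (1.08), ITGB4 (0.78), ITGA6 (−0.15), TAGLN (0.77) and COL1A1 (0.50), were at 8.98 FPKM or less in the control.

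**Figure D3:**
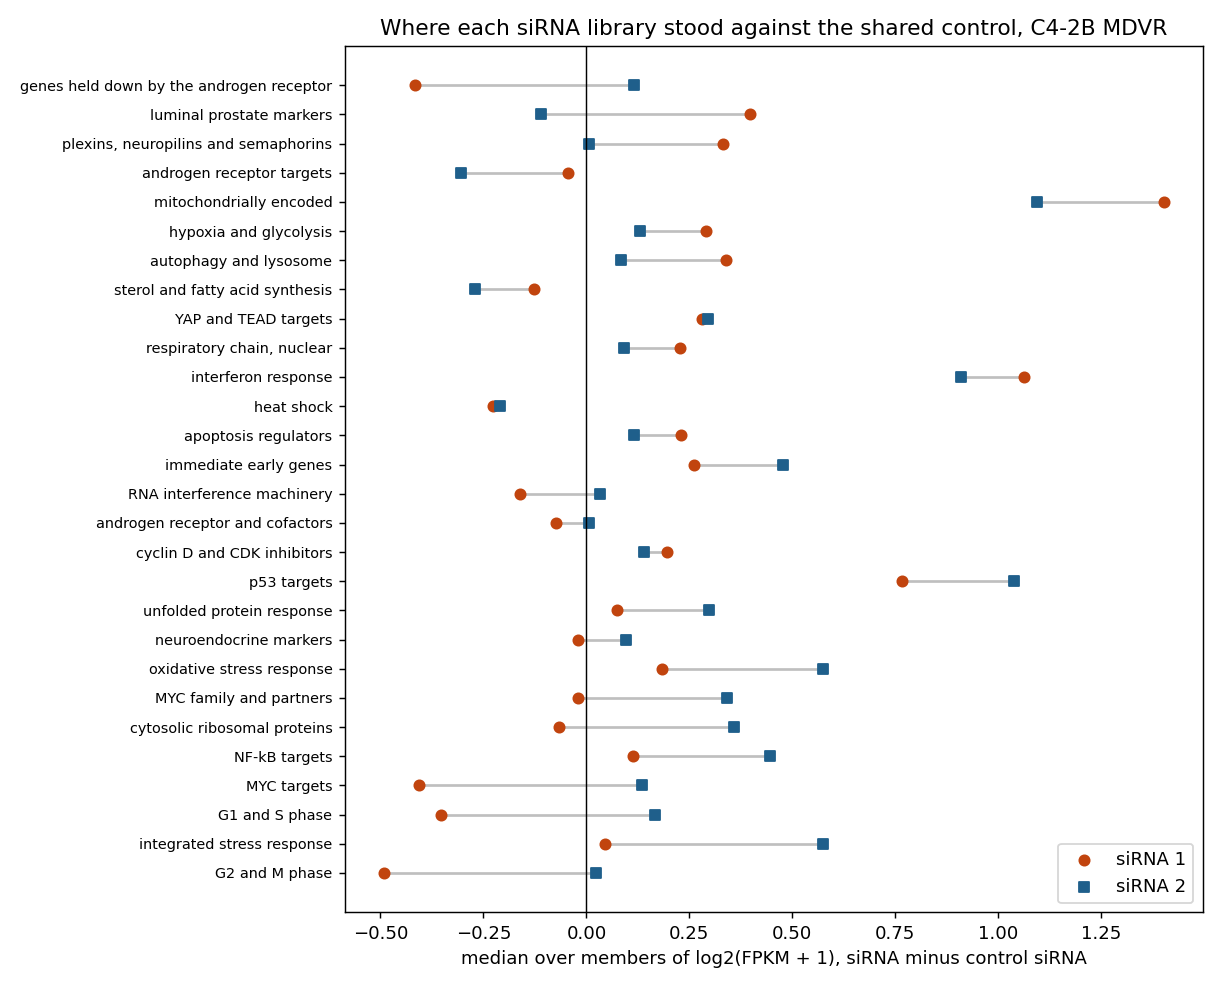
Median over the measured members of each list of log2(FPKM + 1), siRNA library minus control library, for siRNA 1 (circles) and siRNA 2 (squares) in C4-2B MDVR; both share the 1 control library. Cell cycle and MYC target lists have siRNA 1 left of the control and siRNA 2 near it or to the right, while the integrated stress response list has siRNA 1 at 0.04 and siRNA 2 at 0.58.

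The control told which library stood away from it, by a rule of size: at least 1 log2 unit away for one siRNA and under 0.5 for the other. Of the 227 protein-coding nuclear genes at least 2-fold higher with siRNA 1, siRNA 1 alone had moved for 68, all of them above the control, and siRNA 2 alone for 20, none of them above it. For 50 the libraries were at least 0.5 away on opposite sides, for 8 on the same side, and 81 could not be placed. Of the 114 genes higher with siRNA 2, siRNA 1 alone had moved for 23, siRNA 2 alone for 26, 19 were on opposite sides, 6 on the same side and 40 could not be placed. This split depended on the scaling of the control, tried after the data were seen. With short RNAs left out and each library rescaled to the same summed FPKM, the median of all genes went from 0.03 to −0.19 against the control with siRNA 1 and from 0.04 to −0.20 with siRNA 2. The counts then were 42 and 42 for siRNA 1 alone and siRNA 2 alone on the first side, and 38 and 18 on the second. In that scaling the G2 and M phase median was −0.74 with siRNA 1 and −0.23 with siRNA 2, the G1 and S phase median −0.59 and −0.07, the MYC target median −0.66 and −0.13, the stress response median −0.21 and 0.30, and that of androgen receptor targets −0.29 and −0.51. With median-of-ratios rescaling and quantile normalization the signs of these 5 lists turned only for G2 and M phase with siRNA 2 (−0.01 and −0.05) and for the stress response with siRNA 1 (−0.01 and −0.05). So the side of the control on which siRNA 2 put the cell cycle and MYC lists, and siRNA 1 the stress list, turned with the scaling, while the gap between the siRNAs did not.

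Genes past 2-fold were not spread evenly over gene types and lengths. Of 253 short RNA genes 58 were at least 2-fold higher with siRNA 1 and 50 with siRNA 2, and these rest on few fragments. Among protein-coding nuclear genes the quartile with the shortest summed exons, up to 3249 bases, had 76 and 51 such genes, and the quartile with the longest, from 7393 bases, had 33 and 12. Over quartiles of the control level the counts ran from 45 to 73 towards siRNA 1 and from 26 to 31 towards siRNA 2, with both highest in the lowest quartile. On chromosome 1, which had the most protein-coding genes measured, 37 and 11 of 1140 were past 2-fold, and on chromosome 6, 18 and 5 of 530. Over all protein-coding nuclear genes the shares were 2.11% and 1.06%.

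The same siRNA pair stood closer together in H660, and gene by gene the differences bore little relation to those in C4-2B MDVR. In H660 13946 genes passed the level minimum, 138 (0.99%) were at least 2-fold higher with siRNA 1 and 144 (1.03%) with siRNA 2, and 51.2% were higher with siRNA 1 by any amount. The pairs share no library, and across the 11196 genes measured in both lines Pearson's r of the differences was −0.0081 and Spearman's rho −0.038, given as a description over genes, which are not independent. Of all 11196 genes, 5404 (48.3%) had the same sign in both lines. Whatever their C4-2B MDVR difference, 69 of those were at least 2-fold apart in H660. Of the C4-2B MDVR genes at least 2-fold higher with siRNA 1, 216 were measured in H660 and 106 of them (49.1%) had the same sign. Of those higher with siRNA 2, 173 were measured and 102 (59.0%) had the same sign. At least 2-fold the same way in both lines were 11 and 9 genes, most of them short RNAs of few fragments. HBQ1, which encodes globin theta, was the 1 protein-coding gene among them and was named already by its rank. It was at 17.3, 6.48 and 33.3 FPKM in C4-2B MDVR, and at 1.21, 0.556 and 2.82 FPKM in the H660 control, siRNA 1 and siRNA 2 libraries.

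The list medians in H660 were nearer to 0. G1 and S phase genes had a median of 0.08 with 38 of 57 higher with siRNA 1, G2 and M phase genes 0.12 with 52 of 67, and MYC targets 0.04 with 38 of 70, all on the other side from C4-2B MDVR. MYC was at 3.92, 3.98 and 6.05 FPKM in H660. Androgen receptor targets had a median of −0.00 over the 21 measured there, and KLK3 and TMPRSS2 were under 1 FPKM in every H660 library. The stress response list lay the same way in both lines, with −0.14 in H660 and 42 of 52 genes higher with siRNA 2, and DDIT3 at 41.9, 68.3 and 78.0 FPKM. Ribosomal protein genes also lay the same way, at −0.14 with 65 of 74 higher with siRNA 2. PLXND1 was little below its control in H660, as given above, so the line and the size of the PLXND1 decrease cannot be told apart.

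**Figure D4:**
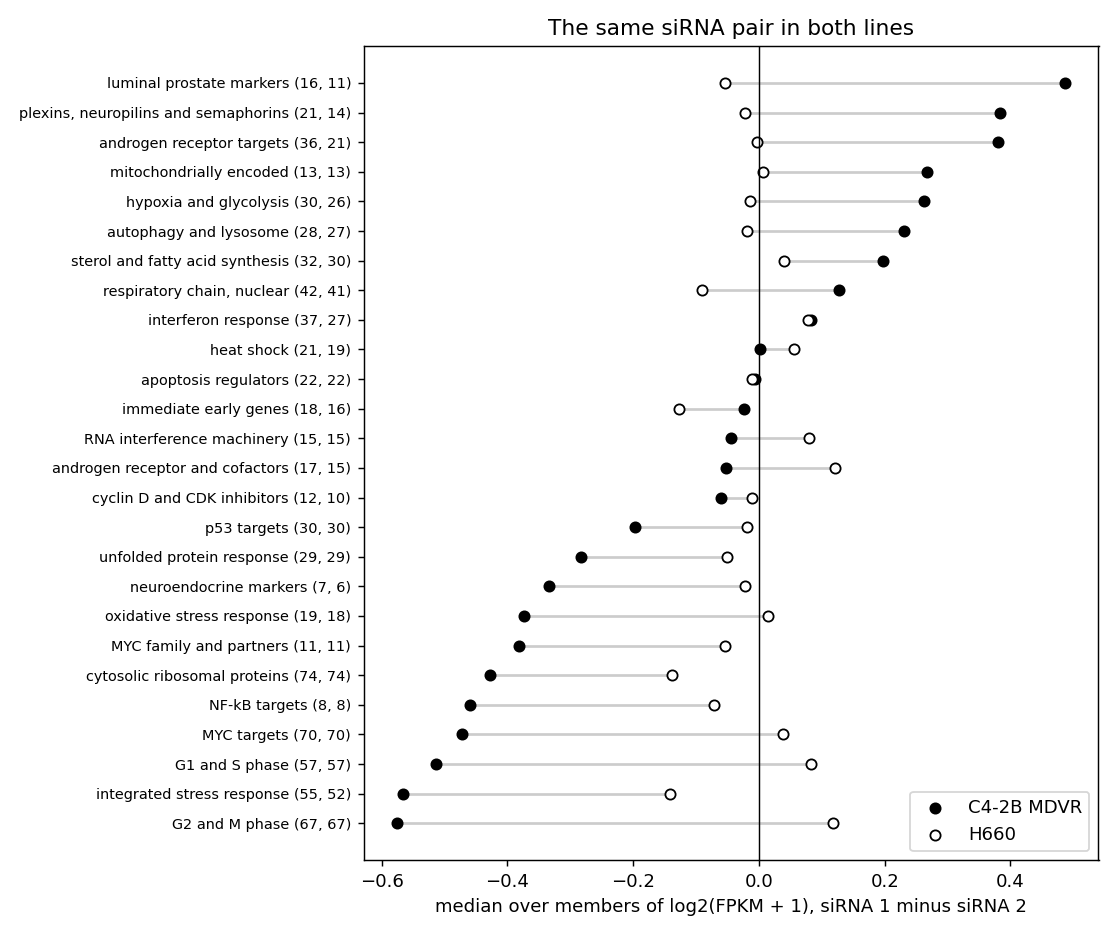
Median over list members of log2(FPKM + 1), siRNA 1 minus siRNA 2, in C4-2B MDVR (filled) and H660 (open), for lists with at least 5 measured members in each line; numbers in brackets are the members measured in each. Filled points run from −0.58 to 0.49, while open points stay between −0.14 and 0.12.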

How the data were processed

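Messenger RNA libraries were sequenced in pairs of 150-base reads, as the labels' protocols state. HISAT, Cufflinks and build hg18 are named in the submitters' processing notes; versions are not given in the sources used here. The deposited values are FPKM per gene, as computed by the authors; all 58735 IDs are in GENCODE release 29 (GRCh38), which gave names, types, coordinates (not those of hg18) and exon lengths. Whole fragments were recovered from the FPKM steps within 0.05 fragments, for 100.0% of non-zero values. They were used for intervals, fragment totals and shares, and the minimum of 100 fragments only. Values were compared as log2(FPKM + 1) with Python 3.11.15, pandas 2.3.3 and scipy 1.17.1, for genes with a mean of at least 1 FPKM; the script was tested on simulated data. Deposited scaling was kept. With 1 library per group no test was made, and genes were counted past 2-fold on the log2(FPKM + 1) scale. Named genes were PLXND1, the 20 protein-coding genes of at least 100 fragments furthest apart each way, the 12 furthest apart and 5 highest in the control of each main list, and 4 of each other list; some of these are not reported here. The members and the 31 lists were chosen with earlier results of these data known. Tried besides were 7 settings: a pseudocount of 0.1, no filter, a minimum of 10 FPKM, protein-coding nuclear genes only, short RNAs left out with rescaling, median-of-ratios rescaling and quantile normalization. RefSeq promoter windows matched 8804 of 10758 protein-coding genes.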

Additional observations from a re-analysis of the deposited data

Results flagged for a closer look

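Lists of at least 5 measured genes whose C4-2B MDVR median was at least 0.3 from 0 were compared with H660. For 7 of these lists the median difference between siRNA 1 and siRNA 2 lay on opposite sides of 0 in C4-2B MDVR and H660. Some lists with smaller medians did so too, such as hypoxia and glycolysis genes at 0.26 and −0.015. Each line has 1 pair of siRNA libraries, so the difference between the lines was not tested. The C4-2B MDVR median less the H660 median was −0.6927 for G2 and M phase genes, −0.5952 for G1 and S phase genes, −0.5105 for MYC targets and −0.3877 for oxidative stress genes. It was 0.5403 for luminal prostate markers, 0.4056 for plexins, neuropilins and semaphorins and 0.3846 for androgen receptor targets. The H660 medians themselves ran from −0.05 to 0.12. For the luminal list 11 of 16 genes were measured in H660, for the plexin list 14 of 21 and for the androgen receptor list 21 of 36, so these medians are over partly different genes. With no filter on low values the plexin median in C4-2B MDVR, less that of all genes, was 0.05. PLXND1 was at 7.62 and 7.54 FPKM with the siRNAs in H660, against 9.13 in its control, and at 1.57 and 3.10 FPKM in C4-2B MDVR, against 7.40.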

How the results depend on the processing

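No paired analysis was possible because each group has 1 library and no test was made, and no replicate could be left out. The counts of genes at least 2-fold higher with siRNA 1 and with siRNA 2, 362 and 246 as reported, became 611 and 482 with a pseudocount of 0.1, 108 and 67 with a mean of at least 10 FPKM, and 227 and 114 over protein-coding nuclear genes; the latter settings test fewer genes. With short RNAs left out and the libraries rescaled they were 300 and 181, and the share of these genes that was higher with siRNA 1 was 55.9% to 66.6% over the settings, against 59.5%. The median of all genes stayed between −0.013 and 0.008. Medians of the androgen receptor, G1 and S phase, G2 and M phase, MYC target and stress response lists, less that of all genes, kept their sign in all 7 settings, at 0.30 to 0.42, −0.54 to −0.50, −0.60 to −0.55, −0.52 to −0.45 and −0.61 to −0.56. The ribosomal protein median went from −0.43 to −0.30 with quantile normalization. Of the other lists, with no filter the plexin median went from 0.38 to 0.05, that of p53 targets from −0.20 to −0.07, that of YAP and TEAD targets from 0.13 to 0.01 and that of neuroendocrine markers from −0.33 to 0. For a mean of at least 10 FPKM the MYC family median went from −0.38 to −0.07 and the interferon median from 0.08 to 0.26, and with quantile normalization the mitochondrially encoded median went from 0.27 to 0.07. The list of 5 genes held down by the androgen receptor ranged from −0.03 to 0.68. Depth limits genes of few fragments, above all short RNAs, and 1 library per siRNA limits every value.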

Other observations

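The clustered histone genes, a family chosen after their values were seen, also stood apart between the siRNAs. These genes encode histones, which package DNA, and lie mostly in 1 cluster on chromosome 6. Of 71 annotated genes 27 were measured, 17 were higher with siRNA 1 and 10 with siRNA 2, and the median difference was 0.39. At least 2-fold higher with siRNA 1 were 9, and 3 with siRNA 2, against 2.11% and 1.06% of protein-coding nuclear genes. HIST1H1C, a linker histone, was at 52.7 FPKM in the control, 257 with siRNA 1 and 39.0 with siRNA 2. HIST2H2BE was at 14.9, 72.8 and 19.2 FPKM in the same order, HIST1H2BD at 8.53, 45.4 and 16.7 FPKM, HIST1H2AC at 6.22, 26.6 and 5.87 FPKM and HIST1H2BC at 1.79, 21.6 and 2.73 FPKM, each highest with siRNA 1. The linker histone HIST1H1B ran the other way, at 1.70, 0.0729 and 1.54 FPKM, as did HIST1H4A (0.618, 0.637 and 2.76 FPKM) and HIST1H2BL (4.15, 2.24 and 6.31 FPKM). These rest on few fragments: 24, 1 and 17 for HIST1H1B, 4, 4 and 14 for HIST1H4A and 42, 22 and 50 for HIST1H2BL. The replication genes were lower with siRNA 1 throughout, and whether the levels of these histone transcripts bear on replication was not tested. In H660 the median over the 20 measured histone genes was −0.13. Many histone genes are near-identical copies, so reads could have been split between them.

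The noncoding pseudogene IKBKGP1 was among the few genes at least 2-fold higher with siRNA 1 in both lines and had the most fragments of them. It was at 0.629, 9.53 and 0.516 FPKM in the C4-2B MDVR control, siRNA 1 and siRNA 2 libraries and at 0.941, 6.19 and 0.434 FPKM in those of H660. It is a near copy of the IKBKG gene, so its values are uncertain.

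Among transcripts opposite to or beside a gene, TYMSOS, which shares a promoter region with TYMS, was at 4.05, 2.59 and 13.9 FPKM in C4-2B MDVR and at 3.27, 2.53 and 6.24 FPKM in H660, at least 2-fold higher with siRNA 2 in both lines.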
